A study of Mus musculus with 8 samples.

Results

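The Kruppel-like factors examined here were the 10 genes Klf2, Klf3, Klf4, Klf5, Klf6, Klf7, Klf9, Klf10, Klf11 and Klf13, chosen by name, and all 10 were found among the 53697 genes of the table and among the 18322 genes that were tested. They were followed in sorted mammary tumor cells of 4 mice that carried the MMTV-PyMT transgene, in which the mammary tumor virus promoter drives the polyoma middle T oncogene in mammary epithelium and gives luminal-like tumors. Mice 1 and 2 were PyMT-Dll1GFP, with a GFP-IRES-Cre-ERT2 cassette knocked into the gene of the Notch ligand Dll1, and mice 3 and 4 were PyMT-Dll1mCh, with a BAC-based mCherry reporter of Dll1, and the sources used here give no age for these mice. Digested tumors were depleted of CD45, CD31 and TER119 positive cells, and each mouse gave 1 library of reporter-positive (Dll1+) and 1 of reporter-negative (Dll1-) cells, so that each of the 4 groups held 2 libraries. Reporter, mouse and line could not be separated, since each mouse carried a single reporter, and no label says whether the lines were housed, sorted or sequenced together.

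Kruppel-like factors are transcription factors whose carboxy-terminal zinc fingers bind GC-rich and CACCC-type DNA, and they differ mainly in the amino-terminal part that recruits cofactors. Klf3 binds the corepressor CtBP, Klf2, Klf4, Klf5, Klf6 and Klf7 act mostly as activators, and Klf9, Klf10, Klf11 and Klf13 bind the corepressor Sin3A. In mammary and other epithelia Klf4 and Klf5 are known for opposing roles in differentiation and proliferation. Klf2, Klf4, Klf6 and Klf10 are also induced within minutes by growth factors, shear or tissue digestion, and Klf9 by glucocorticoids and progesterone.

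Between 27301396 and 123907626 counts were assigned in a library, the most in the Dll1- library of mouse 3, and the lowest count of any member in any library was 920. Dll1 itself was higher in the Dll1+ library of each of the 4 mice, by 2.31 to 3.52 on the log2 scale. The epithelial marker Epcam was at 899 to 1240 CPM (counts per 1e6 after TMM normalization, the scale of all levels here) in the 8 libraries. RNA of cell types that the sort removes was present all the same: the leukocyte gene Ptprc was at 2.88 to 12.7 CPM and the endothelial gene Pecam1 at 13.7 to 98.2 CPM. Lists of 12 genes each for other cell types, none of whose endothelial or fibroblast genes stayed under 3 counts in all libraries, summed to 74.7 to 83.0 CPM in the GFP and 160 to 640 CPM in the mCh libraries for endothelium, 245 to 430 and 404 to 686 CPM for immune cells, and 1380 to 1556 and 4106 to 24569 CPM for fibroblasts and pericytes. The Dll1- library of mouse 4 was the highest in all 3 lists. Within the immune sum the single gene Cd14 stood at 147 to 423 CPM. In Dll1+ cells of mouse 1 it was 338 of the 430 CPM, and the cells its RNA came from were not tested.

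Windows upstream of the start are shown for Klf6, Klf9 and Klf13, each of which rose in Dll1+ cells. The window of Klf2, which had the largest fold change between the reporter lines, is shown as well. They run from 250 to 51 bases before the RefSeq start on GRCm38.p6, read 5′ to 3′ on the strand of the gene. Capitals mark the GC box GGGCGG, the CACC box CACCC and the CCAAT box CCAAT on either strand.
Klf6 (chr13:5861239-5861438, plus strand): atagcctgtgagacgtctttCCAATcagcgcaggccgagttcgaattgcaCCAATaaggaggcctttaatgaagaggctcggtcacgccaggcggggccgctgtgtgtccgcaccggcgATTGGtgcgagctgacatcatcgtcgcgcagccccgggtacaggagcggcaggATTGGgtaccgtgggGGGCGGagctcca
Klf9 (chr19:23140976-23141175, plus strand): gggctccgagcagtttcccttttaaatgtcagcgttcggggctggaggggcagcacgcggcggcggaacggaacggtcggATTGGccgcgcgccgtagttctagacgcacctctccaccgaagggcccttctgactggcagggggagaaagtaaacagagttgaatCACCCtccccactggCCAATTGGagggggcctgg
Klf13 (chr7:63938966-63939165, minus strand): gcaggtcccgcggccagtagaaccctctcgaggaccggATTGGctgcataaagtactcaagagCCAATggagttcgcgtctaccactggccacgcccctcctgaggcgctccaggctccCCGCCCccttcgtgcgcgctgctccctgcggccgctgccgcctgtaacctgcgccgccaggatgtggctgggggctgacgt
Klf2 (chr8:72318812-72319011, plus strand): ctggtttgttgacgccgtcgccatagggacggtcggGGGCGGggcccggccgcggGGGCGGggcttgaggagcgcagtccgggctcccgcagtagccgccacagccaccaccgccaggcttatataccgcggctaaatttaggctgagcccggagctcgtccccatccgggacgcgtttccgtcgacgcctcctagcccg
Such windows were found in the RefSeq table for 8 of the 10 members, all but Klf5 and Klf10. The CCAAT box, which was searched for after these letters had been read, had 4 matches for Klf6, 3 for Klf9, 2 for Klf13 and 2 for Klf11, and 0 for Klf2, Klf3, Klf4 and Klf7. It was held by 28.4% of the 32851 promoter windows of the same length, the GC box by 24.6% and the CACC box by 44.4%. The GC box was in 7 of the 8 members, with 6 matches for Klf3, 4 for Klf4, 2 each for Klf2 and Klf11, 1 each for Klf6, Klf7 and Klf13, and 0 for Klf9. The CACC box had 4 matches for Klf3, 3 for Klf7 and 1 for Klf9. Klf9 alone among the 8 held a match to the AP-1 letters TGANTCA, which overlaps its CACC box and was in 5.57% of all windows. The CRE core TGACG was in Klf2, Klf4 and Klf13 with 1 match each and in 12.7% of all windows. The TATA letters TATAAA were in none of the 8 and in 9.14% of all windows. As the windows end 51 bases before the start, letters nearer to it were not searched. The RefSeq start is not always the start of the gene position given below, which is from GENCODE. By those positions the Klf7 window lies within the gene, and the windows of Klf3 and Klf11 run past the gene start. All 8 windows were richer in G and C than the median window of 51.5%, from 62% for Klf7 to 79% for Klf3. A match is a description of letters and was not tested as a binding site.

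Klf6, an immediate-early activator, was by far the most abundant member. Per kb of exon it stood at 294 ± 102 CPM per kb (SD, n = 8 libraries), 7.52 times the next member, and it made up 65.1% of the summed per-length level of the 10. It was above Klf4, the next in order, in 8 of 8 libraries, and by CPM it lay above 99.7% of the tested genes. Klf4, at 39.0 ± 16.2 CPM per kb, and Klf2, at 35.0 ± 19.1 CPM per kb, did not differ beyond their spread over the 8 libraries. Their order differed by reporter line: Klf4 was higher in 4 of 4 GFP libraries, at 31.6 ± 6.04 against 19.5 ± 3.56 CPM per kb, and in 1 of 4 mCh libraries, at 46.5 ± 20.8 against 50.6 ± 13.9. Klf10 followed with 22.9 ± 2.21 CPM per kb and was the steadiest of these, and Klf9 with 17.3 ± 4.83 CPM per kb was below it in 7 of 8 libraries. Klf13, at 14.0 ± 3.18 CPM per kb, was next to Klf5, at 11.7 ± 4.80 CPM per kb, and here too the order went with the line, with Klf13 higher in 0 of 4 GFP and in 4 of 4 mCh libraries. At the low end were Klf11 with 7.90 ± 1.42, Klf3 with 5.23 ± 1.38 and Klf7 with 4.20 ± 1.41 CPM per kb, in that order in 8 of 8 libraries. This order rests on the exon lengths. By mean CPM, without length, Klf3 was at 58.8, Klf11 at 34.3 and Klf7 at 34.2. These SDs are over both populations and both reporter lines together.

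**Figure D1:**
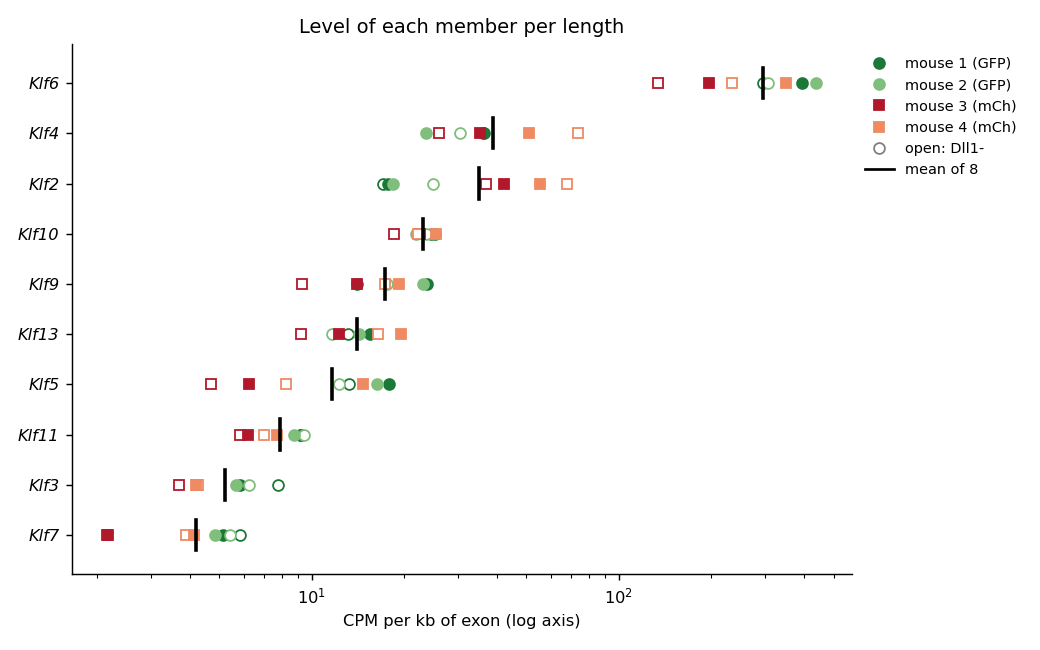
Level of each member in each of the 8 libraries in CPM per kb of exon on a log axis, with circles for GFP mice, squares for mCh mice, open symbols for Dll1- cells and a bar at the mean of 8 libraries. Klf6 lies from 134 to 439 CPM per kb, apart from the other 9 members.

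The first comparison asked how the family differs between Dll1+ and Dll1- tumor cells of the same mouse. Klf5, Klf6, Klf9 and Klf13 rose in Dll1+ cells, by 1.44-fold, 1.43-fold, 1.39-fold and 1.23-fold, and the other 6 members did not pass the test. These 4 were higher in the Dll1+ library of 4 of 4 mice, which held for 21.4% of all tested genes. Called higher in the 4-mouse model were thus 4 of 10 members, against 6.98% of the tested genes, and no member was called lower. The median log2 fold change over the 10 members was 0.05, against 0.00 over the tested genes. Klf5 and Klf6 act mostly as activators, while Klf9 and Klf13 recruit Sin3A. In bulk libraries fewer cells of a type and less RNA per cell cannot be told apart.

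Klf3, the CtBP-binding repressor (chr5:64803388-64832901, plus strand), went from 87.3 to 65.4 CPM in mouse 1, from 70.0 to 63.7 in mouse 2, from 41.4 to 47.4 in mouse 3 and from 47.9 to 47.1 in mouse 4 between Dll1- and Dll1+ cells. The Dll1+ library was lower in 3 of 4 mice, and the log2 fold change was -0.09 with a 95% interval from -0.34 to 0.16. Klf3 shares 404 exon bases with the opposite-strand transcript Gm20033, which had 169 counts in all 8 libraries together.

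Among the activators, Klf6 (chr13:5861482-5870394, plus strand) went from 1296 to 1731 CPM in mouse 1, from 1347 to 1928 in mouse 2, from 590 to 865 in mouse 3 and from 1023 to 1536 in mouse 4. It was higher in the Dll1+ library of every mouse, although the 4 Dll1+ levels overlapped the 4 Dll1- levels because mouse 3 was low in both. The log2 fold change was 0.52 ± 0.08 (SE), with a 95% interval from 0.33 to 0.70 and an adjusted p of 0.0136 in edgeR's quasi-likelihood test with the mouse as a block. The mice differed little in its size, from 0.42 to 0.59 on the log2 scale.

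Klf5, a driver of epithelial proliferation in several tissues (chr14:99298691-99315036, plus strand), went from 68.5 to 92.9 CPM in mouse 1, from 63.6 to 84.8 in mouse 2, from 24.4 to 32.4 in mouse 3 and from 42.8 to 76.1 in mouse 4. All 4 mice were higher in Dll1+ cells, and mouse 4 moved the most. The log2 fold change was 0.52 ± 0.09 (SE), with a 95% interval from 0.31 to 0.73 and an adjusted p of 0.0182.

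Klf2 (chr8:72319033-72321656, plus strand), known for quiescence of endothelium and lymphocytes, and Klf4 (chr4:55527143-55532466, minus strand), a differentiation and reprogramming factor, moved in opposite directions in different mice. Klf2 went from 31.4 to 32.8 CPM in mouse 1, from 45.7 to 34.1 in mouse 2, from 68.3 to 77.9 in mouse 3 and from 125 to 102 in mouse 4. Klf4 went from 111 to 110 CPM in mouse 1, from 92.7 to 71.8 in mouse 2, from 79.3 to 107 in mouse 3 and from 224 to 156 in mouse 4. For both, mouse 3 was higher and mice 2 and 4 were lower in Dll1+ cells. The 95% intervals of the log2 fold change reached from -0.40 to 0.17 for Klf2 and from -0.53 to 0.30 for Klf4, so that a rise of the size seen for Klf6 was outside both. Klf7 (chr1:64029447-64122282, minus strand), known mainly from neurons, lay between 17.6 and 47.4 CPM and had a log2 fold change of -0.06, with an interval from -0.23 to 0.11.

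Among the Sin3A-binding members, Klf9 (chr19:23141226-23168134, plus strand) went from 67.5 to 114 CPM in mouse 1, from 84.8 to 111 in mouse 2, from 44.8 to 67.8 in mouse 3 and from 83.3 to 92.2 in mouse 4. It was higher in Dll1+ cells of every mouse, with mouse 4 the least changed at 0.15 and mouse 1 the most at 0.76 on the log2 scale. The log2 fold change was 0.47 ± 0.10 (SE), with an adjusted p of 0.0388 in edgeR's test.

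Klf13 (chr7:63886351-63938915, minus strand), known as a regulator of the chemokine gene Ccl5, went from 98.6 to 116 CPM in mouse 1, from 87.8 to 108 in mouse 2, from 69.7 to 92.2 in mouse 3 and from 124 to 147 in mouse 4. The step was small and even, from 0.24 to 0.40 on the log2 scale, and the fitted log2 fold change was 0.30 ± 0.05 (SE), with an adjusted p of 0.0230 in edgeR's test. Klf10 (chr15:38291463-38300706, minus strand) and Klf11 (chr12:24651274-24662789, plus strand), both induced by TGF-beta, had log2 fold changes of 0.08, with an interval from -0.12 to 0.27, and 0.03, with an interval from -0.13 to 0.19.

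**Figure D2:**
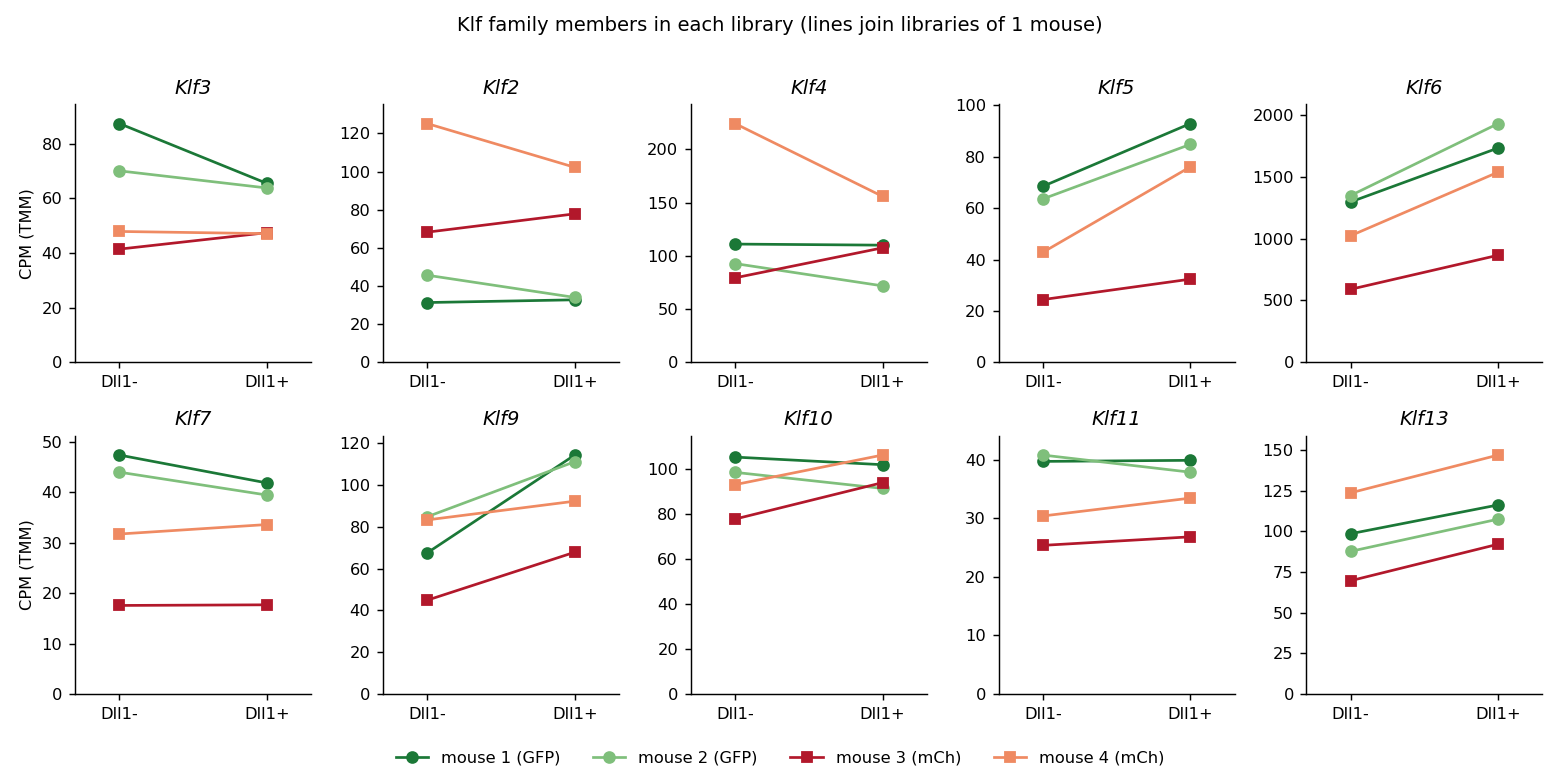
CPM of the 10 members in Dll1- and Dll1+ libraries, each panel with its own axis from 0 and lines joining the libraries of 1 mouse. All 4 lines go up for Klf5, Klf6, Klf9 and Klf13, and mouse 4 lies above mouse 3 in nearly all panels.

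The 4 calls rested on the pairing and on 3 of the mice. Without the mouse as a block, 0 members were called, with adjusted p values from 0.186 to 0.408 for the 4, as the differences between mice then entered the error. Leaving out mouse 1, 2 or 3 also gave 0 called members, with adjusted p values from 0.0551 to 0.175 and log2 fold changes from 0.26 to 0.56 in the same direction, while leaving out mouse 4 kept 4. The number of called genes fell with those mice as well, from 2568 to between 405 and 779.

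Within each reporter line, with 2 mice each, 1 of 10 members was called higher in GFP mice, where 4.29% of the tested genes were, and 3 of 10 in mCh mice, where 5.51% were. Klf6 rose in both lines, by 0.47 ± 0.11 (SE) on the log2 scale in GFP mice (adjusted p = 0.0490, edgeR) and by 0.57 ± 0.11 in mCh mice (adjusted p = 0.0269). Klf5 and Klf13 passed in mCh mice, at 0.62 ± 0.11 and 0.33 ± 0.08, and had log2 fold changes of 0.43 and 0.27 in GFP mice, with adjusted p values of 0.0654 and 0.0893. Klf9 had log2 fold changes of 0.57 in GFP and 0.37 in mCh mice, and passed in neither. Fitted alone, the GFP libraries gave 3 called members, Klf5, Klf6 and Klf9, and the mCh libraries gave 0 among 0 called genes, against 2154 in the joint model. In mCh mice 0 members were called without mouse 1, 2 or 4 and 1 without mouse 3, and in GFP mice 0 without mouse 1 or 2 and 3 without mouse 3 or 4. A line left with 1 mouse has a single pair of libraries, and the spread behind its effect was then taken from the other line.

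A direct test of the difference between the lines in the Dll1 effect called 0 of 10 members, where 0.071% of the tested genes were called, and DESeq2's Wald test called 0 as well. At an unadjusted p under 0.05 there were 2 of 10 members, where 13.2% of the tested genes were, so that their share was near the background and their values are given as a description. Klf10 went from 105 to 102 and from 98.4 to 91.2 CPM in the GFP mice and from 77.6 to 93.8 and from 92.9 to 106 CPM in the mCh mice, lower in both of the former and higher in both of the latter. The difference of its log2 fold changes was 0.31 ± 0.10 (SE), with an adjusted p of 0.287. The other was Klf3, with a difference of 0.36 ± 0.14 and an adjusted p of 0.360.

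**Figure D3:**
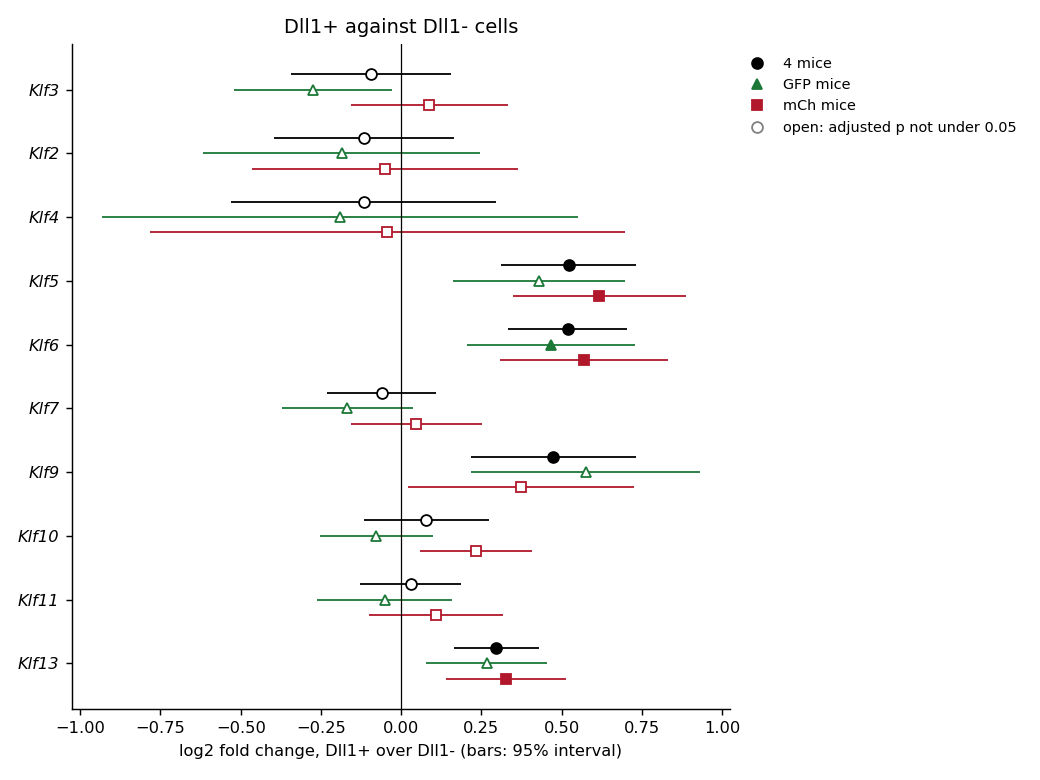
Log2 fold change of Dll1+ over Dll1- cells for each member, with 95% intervals, over 4 mice (black), in GFP mice (green) and in mCh mice (red). Filled symbols have an adjusted p under 0.05, and for Klf5, Klf6, Klf9 and Klf13 all 3 intervals lie above 0.

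Genes of the same immediate, hormonal and proliferative programs were set beside the members. Of 28 immediate-early and dissociation-induced genes, with no Klf among them, 14 rose and 0 fell in Dll1+ cells over 4 mice, with a median log2 fold change of 0.48 against 0.00 over the tested genes. Their summed level was 21816 to 35114 CPM in Dll1- and 32486 to 47748 CPM in Dll1+ libraries, and it was higher in the Dll1+ library of each mouse. Ier3, an early-response survival gene, rose by 0.77 ± 0.08 (SE), the stress factor Atf3 by 0.66 ± 0.08 and the small Maf protein gene Maff by 0.48 ± 0.06 on the log2 scale. Klf2, Klf4 and Klf10, named above as induced by digestion like Klf6, had log2 fold changes of -0.12, -0.12 and 0.08 and did not pass. The part of digestion, sorting or stimulation in tissue in the rise of Klf6 was not tested.

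Of 9 glucocorticoid-induced genes, 4 rose and 0 fell, with a median of 0.49. Tsc22d3, the gene of the glucocorticoid-induced leucine zipper, rose by 0.63 ± 0.06, the clock gene Per1 by 0.51 ± 0.07 and Errfi1, an inhibitor of the EGF receptor, by 0.45 ± 0.08. These moved in the same direction as Klf9, whose link to them was not tested. All 18 cycling-cell genes fell, with a median of -1.05, among them Rrm2 by 1.52 and Plk1 by 1.45 on the log2 scale. Basal epithelial genes also moved with the population, with 6 of 12 rising, led by Krt5 at 2.77 ± 0.25 (SE) and Col17a1 at 2.72 ± 0.22. Of 12 luminal genes 1 rose, the receptor gene Kit at 0.81 ± 0.07, and 3 fell, among them Foxa1 by 1.88 and Prlr by 0.75 on the log2 scale. Over 4 mice 0 of 12 endothelial genes and 0 of 12 fibroblast and pericyte genes passed, and 1 of 10 tested immune genes, Cd14, rose. In mCh mice alone 4 endothelial, 8 immune and 6 fibroblast and pericyte genes fell in Dll1+ cells, where Klf5, Klf6 and Klf13 rose.

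**Figure D4:**
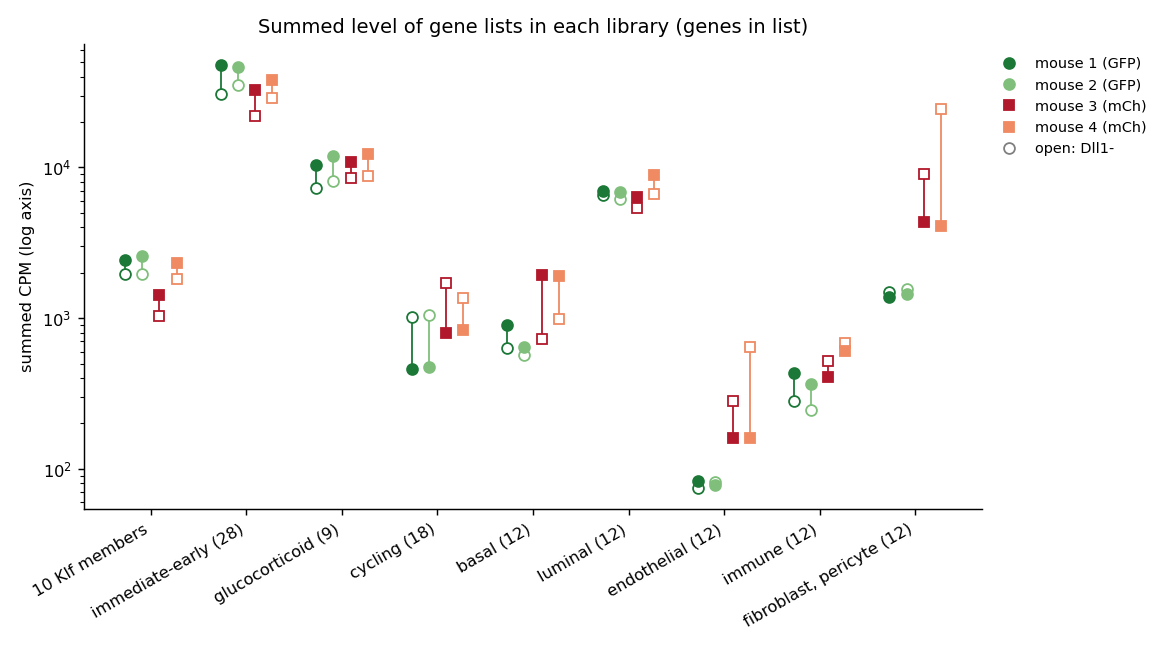
Summed CPM of the 10 members and of 8 gene lists in each library on a log axis, with open symbols for Dll1- and filled ones for Dll1+ cells, and a line joining the libraries of 1 mouse. The sums of the members, of the immediate-early list and of the glucocorticoid list are higher in the Dll1+ library of each mouse. Single genes weigh heavily in them: Klf6 is at 590 to 1928 CPM where the members sum to 1039 to 2570 CPM. Lcn2 is at 3917 to 7700 CPM where the glucocorticoid list sums to 7294 to 12268 CPM, and Dusp1 is in both of these other lists. The fibroblast and pericyte list reaches 24569 CPM in Dll1- cells of mouse 4.

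Of the remaining 16 genes of the SP/KLF family 10 were tested, among them the activators Sp1, at 63.2 to 142 CPM, and Sp3, at 36.7 to 63.8 CPM. Klf12, a CtBP-binding repressor like Klf3, rose in Dll1+ cells with a log2 fold change of 0.67 ± 0.14 (SE) and an adjusted p of 0.0314, and none fell. Klf15, at 0.962 to 3.30 CPM, had a log2 fold change of -0.62 and an adjusted p of 0.0932, and Sp1 of 0.15 with an adjusted p of 0.137. Klf17 had 1 count in 1 library and Sp8 had none, so that only levels above the 3-count floor of 0.0242 to 0.110 CPM could have been detected. Of 14 cofactor genes (CtBP, Sin3, histone deacetylase and acetyltransferase genes) 0 passed the test of 4 mice, and the lowest p belonged to the deacetylase gene Hdac1, at -0.28 with an adjusted p of 0.0503.

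Of 24 genes that act on Klf genes or proteins, 1 rose and 1 fell, where 6.98% of the tested genes were called higher. Whether this list differs from the tested genes was not tested. Mef2a, which drives Klf2 and Klf4 in endothelium, rose by 0.31 ± 0.07, and Pgr, the progesterone receptor, fell by 1.80 on the log2 scale, with levels of 3.48 to 20.3 CPM in Dll1- and 2.39 to 3.87 CPM in Dll1+ libraries. The forkhead gene Foxo3 was next at 0.27 with an adjusted p of 0.0516. Of 24 tested genes published as Klf targets in other tissues, 2 rose and 4 fell, with a median of -0.41. Within the lines the median of this list was -0.07 in GFP and -0.15 in mCh mice. Ccnb1 fell by 1.34 and Birc5 by 1.06 on the log2 scale, and the former is also in the cycling-cell list.

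The second comparison set mCh mice against GFP mice within each population. Klf2 had the largest fold change among the members, 2.51-fold higher in Dll1- and 2.69-fold higher in Dll1+ cells of mCh mice. Klf3 was lower in both populations, by 1.76-fold and 1.37-fold, and had the lowest p of the members in Dll1- cells. Klf11 passed as lower in Dll1- cells and missed the threshold in Dll1+ cells, and the difference between the populations, which is the difference of Dll1 effects tested above, had an adjusted p of 0.650. In Dll1- cells 1 of 10 members was called higher in mCh mice, where 18.7% of the tested genes were, and 2 lower, where 17.9% were. In Dll1+ cells 1 was called higher, against 15.2%, and 1 lower, against 15.4%. The members were thus called about as often as other genes.

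Klf2 was at 31.4 and 45.7 CPM in Dll1- and 32.8 and 34.1 CPM in Dll1+ cells of GFP mice, against 68.3 and 125 CPM in Dll1- and 77.9 and 102 CPM in Dll1+ cells of mCh mice. The lowest mCh library was above the highest GFP library. The log2 fold change was 1.32 ± 0.32 (SE) in Dll1- cells, with an adjusted p of 0.0188, and 1.43 ± 0.32 in Dll1+ cells, with an adjusted p of 0.0188. Among all tested genes, 21.5% had all 4 mCh libraries above all 4 GFP libraries, and Klf2 was the only member that did.

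Endothelial, immune and pericyte genes were also higher in mCh libraries. Klf2 is known from endothelium and lymphocytes, and the lymphocyte genes Cd3e and Cd79a reached at most 0.727 and 1.38 CPM in any library. In Dll1- cells 12 of 12 endothelial genes were higher, with a median of 2.60 on the log2 scale, 9 of 10 tested immune genes, with a median of 2.07, and 11 of 12 fibroblast and pericyte genes, with a median of 3.85. In Dll1+ cells these were 5, 6 and 9, with medians of 0.98, 0.94 and 1.61. The endothelial sum was 640 CPM in Dll1- and 160 CPM in Dll1+ cells of mouse 4, where Klf2 was at 125 and 102 CPM, and 280 and 161 CPM in mouse 3, where Klf2 was at 68.3 and 77.9 CPM. The part of such cells in the Klf2 difference was not tested. Among the 28 immediate-early genes, mCh mice had 2 higher and 7 lower in Dll1- cells, and 1 higher and 4 lower in Dll1+ cells. Over all tested genes the shares were 18.7% and 17.9%, and 15.2% and 15.4%, in the same order.

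Klf3 was at 70.0 and 87.3 CPM in Dll1- and 63.7 and 65.4 CPM in Dll1+ cells of GFP mice, and between 41.4 and 47.9 CPM in the 4 mCh libraries. No library of the lines overlapped. The log2 fold change was -0.82 ± 0.13 (SE) in Dll1- cells, with an adjusted p of 0.00478, and -0.45 ± 0.13 in Dll1+ cells, with an adjusted p of 0.0399 in edgeR's test. Klf7 and Klf11 were also lower in all 4 mCh than in all 4 GFP libraries, which makes 3 of 10 members, against 21.8% of the tested genes.

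Klf11 was at 39.7 and 40.8 CPM in Dll1- cells of GFP mice and at 25.4 and 30.4 CPM in those of mCh mice. The log2 fold change was -0.53 ± 0.14 (SE), with an adjusted p of 0.0268 in edgeR's test, and -0.37 ± 0.14 in Dll1+ cells, with an adjusted p of 0.0905. Klf7 was at 44.0 and 47.4 CPM in Dll1- cells of GFP mice and at 17.6 and 31.7 CPM in those of mCh mice, with an adjusted p of 0.0929.

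Klf4, Klf5, Klf6, Klf9, Klf10 and Klf13 passed in neither population. Klf5 and Klf6 had log2 fold changes of -0.98 and -0.71 in Dll1- and of -0.71 and -0.61 in Dll1+ cells, with wide intervals, and mice 3 and 4 lay far apart. For Klf5 in Dll1- cells the interval ran from -1.97 to 0.01, and for Klf4 from -0.56 to 1.70.

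**Figure D5:**
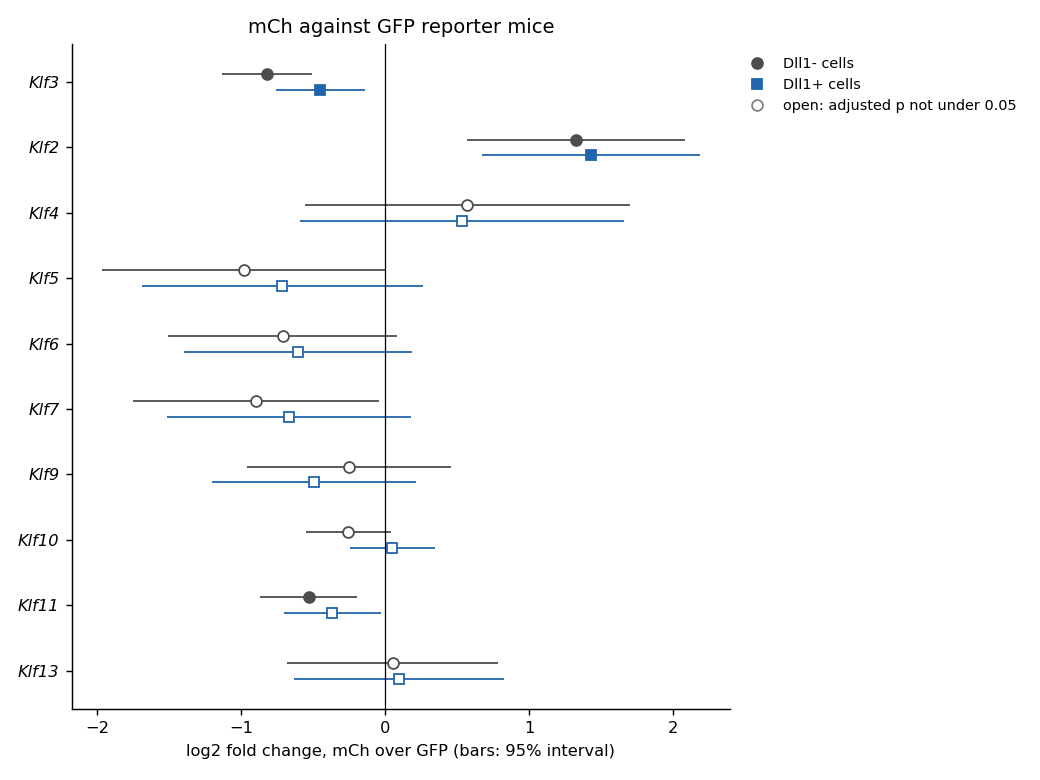
Log2 fold change of mCh over GFP mice for each member in Dll1- cells (grey circles) and Dll1+ cells (blue squares), with 95% intervals. Filled symbols have an adjusted p under 0.05, which Klf2 and Klf3 have in both populations and Klf11 in Dll1- cells.

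Without either GFP mouse, 0 members and 0 genes were called in both populations, where the spread within a line came from the mCh mice alone, while the direction of Klf2 and Klf3 stayed. Without mouse 4 the log2 fold change of Klf2 in Dll1- cells was 0.87, against 1.70 without mouse 3. Over all 10 alternatives, those that leave out a mouse included, Klf2 kept its call in 6 in Dll1- and in 7 in Dll1+ cells. Klf3 kept its call in 8 and 7 of them. With a single mCh mouse, whose spread is then taken from the GFP mice, more members passed in Dll1- cells: 7 without mouse 3 and 8 without mouse 4. Klf13 was among them in opposite directions, at 0.41 without mouse 3 and -0.37 without mouse 4, while Klf5 was at -0.63 and -1.39. In Dll1+ cells 2 passed without mouse 3 and 6 without mouse 4, where Klf3 no longer passed (adjusted p = 0.0536).

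The 2 mCh mice differed from each other across the family. In Dll1- cells 10 of 10 members were higher in mouse 4 than in mouse 3, by a median of 0.82 on the log2 scale and by up to 1.50 for Klf4, and in Dll1+ cells 9 of 10 were, by a median of 0.49. The median absolute difference between these mice over the tested genes was 0.28 in Dll1- and 0.25 in Dll1+ cells. Between the GFP mice the members differed by a median absolute 0.14 and 0.10. The difference between the mice was not tested. The immediate-early sum was 21816 and 29091 CPM in Dll1- cells of mice 3 and 4, and the endothelial sum 280 and 640 CPM. In Dll1+ cells of these mice the immediate-early sum was 32486 and 37854 CPM, and the endothelial sum 161 and 160 CPM. The fibroblast and pericyte sum was 8997 and 24569 CPM in Dll1- cells, and 4321 and 4106 CPM in Dll1+ cells. The part of these programs and cell types in the difference between these mice was not tested.

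Some cofactor and input genes were also called between the lines, as were many of the tested genes. The background share was 18.7% called higher and 17.9% called lower in mCh mice for Dll1-, and 15.2% and 15.4% for Dll1+. Whether the lists exceed these shares was not tested. In Dll1- cells 1 of 14 cofactor genes was higher and 7 were lower in mCh mice, and the acetyltransferase genes Crebbp and Ep300 had the lowest p, at -1.16 ± 0.12 (SE) and -1.13 ± 0.12 on the log2 scale. In Dll1+ cells they were at -0.92 and -0.88. Of the 24 input genes 1 was higher and 7 lower in Dll1- cells, led by Fbxw7, a ubiquitin ligase subunit that targets Klf5, at -0.91 ± 0.12, and Foxo1 at -0.61 ± 0.12. In Dll1+ cells 6 were lower, among them the glucocorticoid receptor gene Nr3c1 at -0.87 ± 0.13 and Mef2d at -0.96 ± 0.15. Sp1 and Sp3, which bind the same GC boxes, were lower in Dll1- cells, at -0.86 ± 0.15 and -0.64 ± 0.09. Published target genes went the other way, with 12 of 24 higher and 1 lower in Dll1- cells and 10 higher and 1 lower in Dll1+ cells. They were led by the smooth muscle gene Tagln, at 3.61 ± 0.35 in Dll1- cells, and the cell cycle inhibitor Cdkn1b was lower, at -1.11 ± 0.11. The list also holds Thbd, Nos3, S1pr1 and Eng, genes of endothelium and lymphocytes.

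Across the 8 libraries, as a description over libraries that share mice and lines, the closest pair of members was Klf5 and Klf6, with a Pearson r of 0.98 on log2 CPM, followed by Klf7 and Klf11 with 0.96. The most opposed pair was Klf2 and Klf3, with -0.82. Over the 4 within-mouse differences between Dll1+ and Dll1- cells, r was 0.57 for Klf5 and Klf6. It was 0.86 for Klf7 and Klf11 and 0.14 for Klf2 and Klf3. The most opposed pair over these differences was Klf6 and Klf9, with -0.81, although both were higher in Dll1+ cells of every mouse.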

How the data were processed

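RNA from 8 libraries of 4 mice was sequenced with a stranded TruSeq kit. Reads were quantified by the authors with Salmon on GENCODE M20 transcripts (GRCm38.p6), and tximport gave the deposited table of estimated counts per gene, whole numbers without any normalization. Whether Salmon used the strand is not given in the sources used here, so overlaps of opposite strands are uncertain. Gene positions and union exon lengths came from GENCODE M21 (GRCm38), which matched 53668 of the 53697 genes.

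Groups were read from the reporter, Dll1 status and mouse in the labels. The labelled mouse, from which both libraries of a pair come, was the block. Deviations of same-mouse libraries from their group means correlated at -0.05 in GFP and 0.55 in mCh mice. Replicates of each group differed by more than counting noise.

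edgeR 4.0.16 (R 4.3.3; TMM, filterByExpr on Dll1 status, robust quasi-likelihood F test) was run over 18322 genes, with Benjamini-Hochberg adjustment and a threshold of 0.05. The model of 4 mice held Dll1 status and mouse, as in the authors' 2-factor model, another held a Dll1 effect per reporter, and mCh was compared with GFP over the 4 groups without a block. For log2 CPM in single libraries the prior count was 2. P values measure the spread between these libraries only.

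The members, gene lists and tests were chosen with earlier results of these data known. All 10 members are named in each comparison, and of each list up to 3 genes with the lowest p over 4 mice and up to 2 between reporters. A gene that this rule would name is not reported here. Alternatives were RLE size factors, DESeq2 1.42.0, other filters, no block, limma-voom (limma 3.58.1) with the mouse as a random block, separate fits, and each mouse left out. The scripts were tested on simulated data. Floors cover counting error only.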

Additional observations from a re-analysis of the deposited data

Results flagged for a closer look

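Klf5 had the single member value that stood apart among the 4 mice. Its within-mouse difference between Dll1+ and Dll1- cells was 0.83 on the log2 scale in mouse 4, against 0.41 to 0.44 in the other 3 mice, a gap beyond Dixon's critical value for 4 samples. With 10 members examined and about 1 in 20 such groups expected to be picked out by chance, a single case is not unusual. Without mouse 4 the 4-mouse log2 fold change of Klf5 was 0.42, with an adjusted p of 0.0148 in edgeR's test.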

How the results depend on the processing

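Of 580 values of members under the alternatives, 478 kept their direction and side of the threshold, 51 lost a call, 28 gained a call and 23 changed sign. The cause of these changes was not tested unless named. Over 4 mice 2568 genes and 4 members were called. DESeq2 gave 4362 genes, the fit with no replicate block 1352 genes and 0 members, and leaving out a mouse 405 to 2401 genes and 0 to 4 members.

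In GFP mice 1673 genes and 1 member were called. With no filter on low counts these were 3001 and 3, with DESeq2 3 members, with at least 10 counts in every library 2 members, with GFP libraries fitted alone 3 members, with no replicate block 274 genes and 0 members, and without a mouse 2 to 2355 genes and 0 to 3 members. In mCh mice 2154 genes and 3 members were called. With no filter there were 3637 genes, with no replicate block 212 genes and 0 members, with mCh libraries fitted alone 0 genes and 0 members, and without a mouse 905 to 1315 genes and 0 to 1 members. The difference of the Dll1 effects had 13 genes, against 541 with DESeq2, 1143 with no filter, 44 with at least 10 counts in every library, 0 with no replicate block and 0 to 717 without a mouse, and 0 members in each of these.

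For mCh against GFP, 6701 genes and 3 members were called in Dll1- cells. DESeq2 gave 5 members, and leaving out a mouse 0 to 7828 genes and 0 to 8 members. In Dll1+ cells 5612 genes and 2 members were called, 1 member with no filter, and 0 to 6897 genes and 0 to 6 members without a mouse. With the mouse as a random block (limma-voom), 4 members were called in Dll1- and 2 in Dll1+ cells.

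Signs changed for members that had not passed. Leaving out each mouse, the 4-mouse log2 fold change ran from -0.19 to 0.016 for Klf3, from -0.30 to 0.020 for Klf4 and from -0.0091 to 0.079 for Klf11. In GFP mice it ran from -0.42 to 0.066 for Klf2 and from -0.10 to 0.0080 for Klf11. In mCh mice it ran from -0.046 to 0.17 for Klf3, from -0.31 to 0.16 for Klf2, from -0.55 to 0.41 for Klf4 and from -0.019 to 0.062 for Klf7. The difference of the Dll1 effects ran from -0.14 to 0.37 for Klf2, from -0.37 to 0.59 for Klf4 (-0.037 with no replicate block), from -0.060 to 0.37 for Klf5 and from -0.050 to 0.10 for Klf13. For mCh against GFP in Dll1- cells the range was -0.32 to 1.13 for Klf4, -0.72 to 0.13 for Klf9 and -0.37 to 0.41 for Klf13, and in Dll1+ cells -0.044 to 0.12 for Klf10 and -0.28 to 0.36 for Klf13. The lowest count of a member in a library was 920, and each line had 2 mice.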
